A study of Rattus norvegicus with 16 samples.

Results

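The BCL2 family, the proteins that set whether a cell's mitochondria release the factors that start apoptosis, was followed in the hippocampus of 16 rats. The 10 genes are Bcl2, Bcl2l1, Mcl1, Bax, Bak1, Bad, Bid, Bcl2l11, Bbc3 and Pmaip1, and their probes were taken by gene name from the annotation of the array, 13 of the 30367 on it, which carry 26583 different gene names or identifiers. Bcl2l1 has 4 probes and each other gene has 1. RNA had been hybridized to Agilent rat expression arrays in a single colour, 1 rat per array, so the number of arrays limits the precision. The adult male Sprague-Dawley rats fell into 6 groups of 3, 2, 3, 3, 3 and 2 arrays: Naïve (neither injured nor treated), Sham (anesthetized and prepared for injury but not injured), TBI (traumatic brain injury, here a severe fluid percussion injury), and TBI+PMI, TBI+JM6 and TBI+E33, which were injured in the same way and given a drug. PMI was given at 250 mg/kg and JM6 at 400 mg/kg by gavage, and E33, which is estradiol in the study's methods, at 33 µg/kg. All brains were taken 24 hours after injury, so a single time point was measured. The methods give 3 rats per group, and 2 Sham and 2 TBI+E33 arrays were analysed here.

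The family works as a balance on the outer mitochondrial membrane. The guardians Bcl2, Bcl2l1 (which encodes Bcl-xL) and Mcl1 hold back the effectors Bax and Bak1, which otherwise assemble into pores and let cytochrome c escape. The BH3-only proteins Bad, Bid, Bcl2l11 (Bim), Bbc3 (Puma) and Pmaip1 (Noxa) sense stress and tip the balance, either by occupying the guardians or by activating the effectors directly. In injured hippocampus the family has long been studied because neurons that survive the blow itself can die by this route in the hours and days that follow.

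Of the 13 probes, 5 lie in coding sequence, and these are shown because each reads a known part of its protein and because the Bcl2l1 and Bid probes carry the differences described further on. All are 60 bases long, and each holds at least 1 forward frame with no stop codon. The Bcl2l1 probe opens with the start codon, in capitals. In the Bax and Pmaip1 probes the capitals mark, in the open frame, the glycine and aspartate codons of the BH3 motif, the short helix through which family members grip each other. The Bid and Bcl2l11 probes have no capitals, since they lie outside that motif.
Bcl2l1, probe at the start codon: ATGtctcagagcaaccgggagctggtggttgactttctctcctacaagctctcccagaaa
Bax: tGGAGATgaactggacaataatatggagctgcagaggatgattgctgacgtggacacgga
Pmaip1: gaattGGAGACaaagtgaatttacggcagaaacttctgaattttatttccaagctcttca
Bid: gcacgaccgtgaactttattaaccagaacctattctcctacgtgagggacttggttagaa
Bcl2l11: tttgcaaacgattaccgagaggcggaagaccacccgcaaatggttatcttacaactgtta

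Levels are given as log2 of the signal over the 75th percentile of the array's detected probes, so that 0 is the level of a well expressed gene and each step down is a halving. Levels of different probes are not compared. A probe was tested if all arrays of any 1 group showed it well above background, which kept 22821 probes and 9 of the 10 genes. Bcl2l11 was not tested, since its probe was well above background on 2 of 16 arrays, TBI+JM6 3 and TBI+E33 1. Pmaip1 was detected on 0 of the 8 Naïve, Sham and TBI arrays and on 8 of 8 drug-treated arrays, and Bcl2 on 3 of 8 and 8 of 8. The other 7 genes were detected on all 16 arrays at their main probe, which is the brightest one with a value on every array. All levels are those of whole tissue, in which fewer cells of a type and less RNA per cell cannot be told apart.

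The arrays of Naïve, Sham and TBI rats were scanned in the first of 2 sessions and those of the drug-treated rats in the second. In the first session 16274 to 18239 probes per array were well above background, and in the second 20256 to 24979. Markers of neurons and of hippocampal regions were detected in every group, with 7 or 8 of 8 and 3 or 4 of 4 above background on each array. Of the 6 leukocyte markers, the neutrophil genes S100a8 and S100a9 were detected on 11 and 16 of 16 arrays and called higher in TBI than in Sham rats, by 3.77 and 2.95 on the log2 scale, and Mpo was detected on 0. Choroid plexus markers, from tissue that lies against the hippocampus, summed to 76.5, 121 and 151 times the array's 75th percentile on Naïve 2, Sham 1 and TBI+PMI 1 and to between 0.187 and 7.56 times on the other 13 arrays. Replicates of a group correlated at 0.966 to 0.987 across probes.

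**Figure D1:**
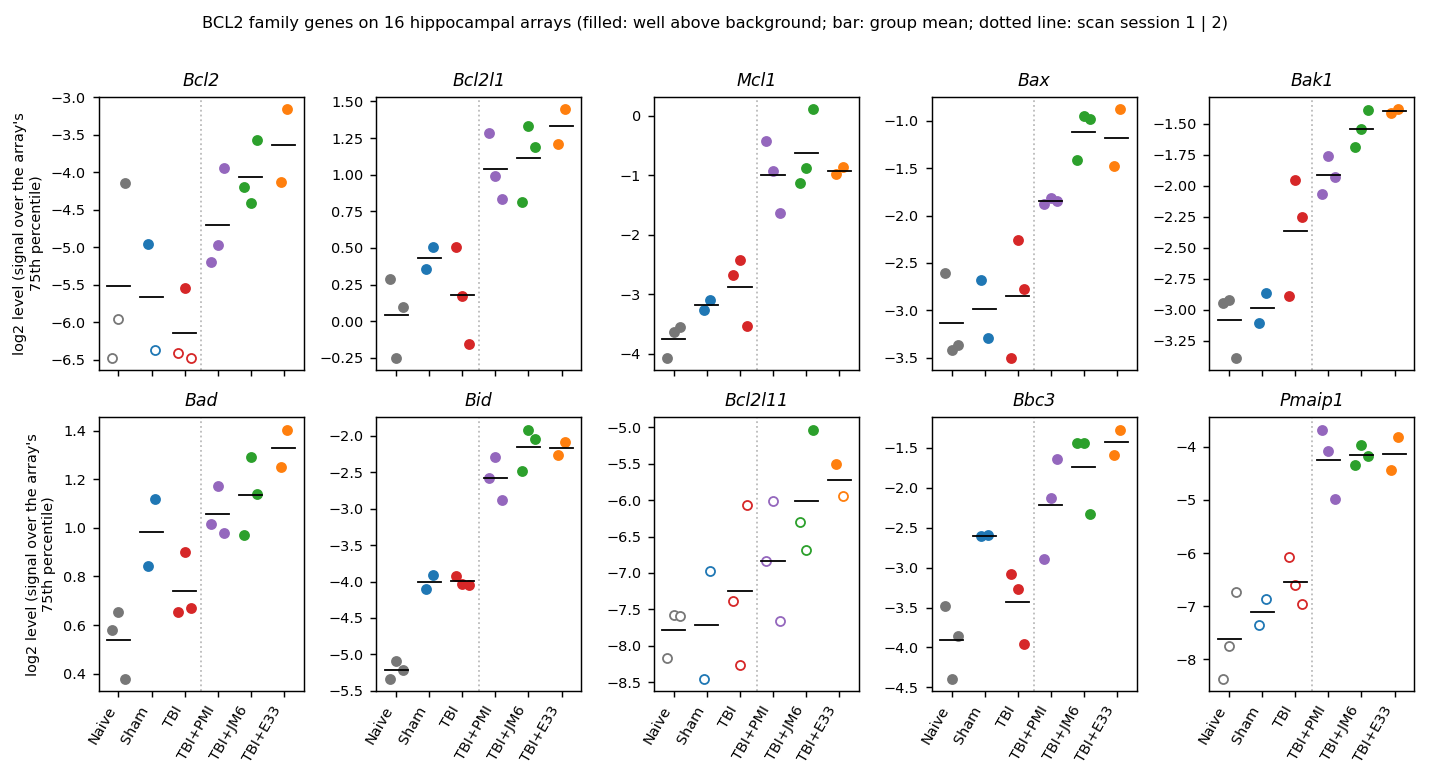
Log2 level of the 10 BCL2 family genes at their main probe on each of the 16 arrays, by group. Filled points are well above background, open points are not, bars are group means, and the dotted line separates the scan sessions. Bid is low in the 3 Naïve rats and about equal in Sham and TBI, and Pmaip1 is detected on the 8 arrays to the right of the line only.

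The first question was whether the injury itself moved the family, by TBI vs. Sham, and how both groups stood against Naïve rats. No member was called at its main probe in TBI vs. Sham: by limma 0 of 9 passed an adjusted p under 0.05, where 9.38% of all tested probes did. At an unadjusted p under 0.05 the limma count was 1, Bak1. The methods' t-test with its 1.2-fold limit passed 0 of 9, and 3069 of the 22821 tested probes. Against Naïve rats 1 of 9 was called in TBI rats (4.71% of all probes) and 1 of 9 in Sham rats (8.07%), and each time it was Bid, which rose. The median difference of the 9 genes was 0.01 on the log2 scale in TBI vs. Sham rats and 0.48 (TBI) and 0.44 (Sham) against Naïve rats, where the median of all probes was -0.03, 0.04 and 0.06. The comparisons share arrays in pairs, the TBI, Naïve and Sham arrays each serving in 2 of the 3. The TBI arrays lay on 1 slide with Naïve 3, and both Sham arrays on another with Naïve 1 and 2.

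Bid encodes a BH3-only protein that caspase-8 cuts, so that it carries a death receptor signal to the mitochondria. Its probe lies on chromosome 4 of rn4, from 157297971 to 157298030 on the minus strand. The level was -5.33, -5.09 and -5.22 in the Naïve rats, -4.11 and -3.91 in the Sham rats, and -3.92, -4.03 and -4.04 in the TBI rats. The 3 Naïve rats lay below all Sham and TBI rats, and the Sham and TBI rats overlapped. Bid was 2.31-fold higher in Sham than in Naïve rats (log2 1.205, SE 0.21, limma adjusted p = 0.00659) and 2.32-fold higher in TBI (log2 1.22, SE 0.19, limma adjusted p = 0.00626), while TBI and Sham differed by 0.01 (SE 0.21, limma adjusted p = 0.98). The rise was as large within a slide, 1.204 for Sham against Naïve 1 and 2 and 1.22 for TBI against Naïve 3, with no test within a slide. The call in Sham ended without Sham 2 (limma adjusted p = 0.0593), that in TBI with the slide as a fixed block (0.0581), and both with a normexp background correction, with the methods' t-test after adjustment and with limma on the compared groups alone. Of 5 astrocyte markers, Gfap was called in both comparisons, 2.01 higher in Sham and 2.53 higher in TBI than in Naïve rats on the log2 scale, while Gjb6 and Aldh1l1 fell in TBI, with differences of -1.61 and -0.80. Of the leukocyte markers, the T cell marker Cd3e rose by 4.93 and 4.05, and S100a8, S100a9 and Ptprc rose in TBI by 4.92, 4.29 and 1.85 and were not called in Sham (1.14, 1.34 and 0.20). On each Naïve array only 2 of the 6 leukocyte markers, S100a9 and Ptprc, were above background. The sizes for Cd3e and S100a8 therefore rest in part on background signal. The summed level of the 6 leukocyte markers was 0.122 to 0.144 times the 75th percentile in Naïve, 0.311 to 0.447 in Sham and 0.655 to 3.22 in TBI rats, and that of 6 microglia and macrophage markers 4.88 to 5.32, 5.27 to 8.26 and 6.84 to 9.19. Their part in the difference of Bid was not tested.

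Among the guardians, no main probe moved past the test among Naïve, Sham and TBI rats. Mcl1, a short-lived guardian whose protein turns over within hours, had levels of -4.07, -3.63 and -3.56 in Naïve, -3.27 and -3.10 in Sham and -2.68, -2.43 and -3.53 in TBI rats. Both Sham arrays lay above the Naïve arrays, as did all 3 TBI arrays, and TBI 3 lay below Sham. The difference in TBI vs. Sham was 0.31 (SE 0.42, limma adjusted p = 0.684). Bcl2, the founding member, was above background on 1 of 3 Naïve, 1 of 2 Sham and 1 of 3 TBI arrays, so that its difference of -0.48 in TBI vs. Sham (SE 0.65, limma adjusted p = 0.683) rests largely on background signal. Bcl2l1 at its main probe differed by -0.26 (SE 0.24, limma adjusted p = 0.538), with levels from -0.25 to 0.51 over the 8 arrays.

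The probes of Bcl2l1 disagreed. The main probe lies on chromosome 3 of rn4, from 143129096 to 143129153 on the minus strand, and a further probe overlaps it. The probe at the start codon, shown above, lies 49349 bases away, from 143178503 to 143178562. Its level was -5.92, -5.88 and -6.06 in Naïve, -3.72 and -2.91 in Sham and -4.09, -6.35 and -5.80 in TBI rats, with 1, 2 and 2 arrays of these groups above background. The Sham arrays lay above all others, and TBI 1 lay between them and the rest. At this probe Bcl2l1 was higher in Sham than in Naïve rats (log2 2.64, SE 0.53, limma adjusted p = 0.0118), though 2 of the 3 Naïve arrays held background signal so that the size is uncertain, and lower in TBI than in Sham rats (log2 -2.10, SE 0.53, limma adjusted p = 0.029). The overlapping probe near the main one, with no usable value on Naïve 1, differed by -0.15 in TBI vs. Sham (SE 0.22, limma adjusted p = 0.703). The fourth probe, 47369 bases from the main one, was above background on 2 of 16 arrays and was not tested. The call in TBI vs. Sham was lost without Sham 1 (limma adjusted p = 0.0727), Sham 2 (0.185), TBI 2 (0.0916) or TBI 3 (0.0979), under quantile normalization (0.0518) or with the slide as a fixed block (0.525), with limma on the compared groups alone (0.225) and with the methods' t-test. With a normexp background correction the difference shrank to -0.48 (limma adjusted p = 0.801). The call in Sham vs. Naïve was lost without Sham 2 (0.108), with the methods' t-test after adjustment, and with normexp, where the difference was 1.22 (limma adjusted p = 0.447). Of the 8 neuron markers, Slc17a7, a marker of excitatory neurons, took the same course, 1.43 higher in Sham than in Naïve and different by -1.43 in TBI vs. Sham on the log2 scale. Syt1, Rbfox3, Nefl and Snap25 had differences of the same signs, but none was called in both comparisons. Map2, Tubb3 and Gad1 differed by -0.10, 0.01 and -0.37 in Sham vs. Naïve, with no call. Of 6 microglia and macrophage markers, P2ry12 moved like Slc17a7 (1.05 and -1.41), whereas Cd68 and Itgam were higher in TBI than in Sham rats, by 2.68 and 1.40, and were not called in Sham vs. Naïve (-0.46 and -0.52). The summed level of the 8 neuron markers was 23.1 to 25.9 in Naïve, 29.6 to 32.2 in Sham and 16.2 to 23.9 in TBI rats. Their part in the difference was not tested.

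**Figure D2:**
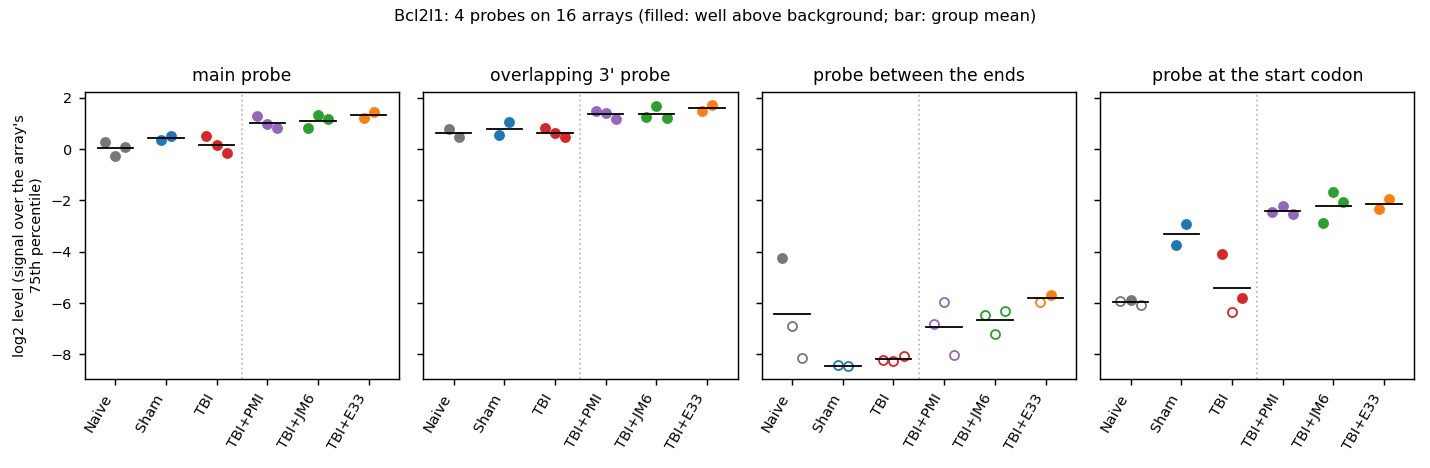
Log2 level of the 4 Bcl2l1 probes on each array, by group, with filled points well above background and bars at the group means. At the main probe and the probe that overlaps it the first 3 groups lie together, and at the start codon probe the Sham arrays lie at -3.72 and -2.91, above every Naïve and TBI array.

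The effectors did not pass the test in these comparisons. Bax, measured by 10 replicate spots per array, was -2.61, -3.42 and -3.37 in Naïve, -2.68 and -3.29 in Sham and -3.50, -2.26 and -2.78 in TBI rats, and the groups overlapped. Its difference in TBI vs. Sham was 0.14 (SE 0.36, limma adjusted p = 0.842). Bak1, the effector that sits on the mitochondrial membrane at rest, was -2.94, -2.92 and -3.39 in Naïve, -3.11 and -2.86 in Sham and -2.89, -1.95 and -2.25 in TBI rats. TBI 2 and 3 were higher than every Sham and Naïve array, and TBI 1 was level with them. The difference in TBI vs. Sham was 0.62 (SE 0.25, limma adjusted p = 0.137), and without TBI 1 it was 0.88 and passed (limma adjusted p = 0.0143). In TBI vs. Naïve, where its arrays did not overlap, it was 0.72 (SE 0.22, limma adjusted p = 0.0879).

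The other BH3-only genes did not pass either. Bbc3, which encodes Puma, was -3.48, -4.39 and -3.86 in Naïve, -2.60 and -2.59 in Sham and -3.08, -3.27 and -3.95 in TBI rats. The Sham rats lay above every Naïve and TBI rat, and Naïve and TBI rats overlapped. Sham and Naïve differed by 1.31 (SE 0.40, limma adjusted p = 0.0657) and TBI and Sham by -0.83 (SE 0.40, limma adjusted p = 0.211). It was the only 1 of 9 main probes whose TBI and Sham arrays did not overlap, where 41.9% of all tested probes did not overlap. In Sham vs. Naïve it was 5 of 9 against 39.6%, and in TBI vs. Naïve 3 of 9 against 23.3%. Bad, which binds the guardians when growth factor signals fade, differed by -0.24 in TBI vs. Sham (SE 0.17, limma adjusted p = 0.396), with levels from 0.38 to 1.12. Pmaip1 was below background in all 3 groups (-8.36 to -6.07), so no fold is given for it, and Bcl2l11 was likewise (-8.45 to -6.07).

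**Figure D3:**
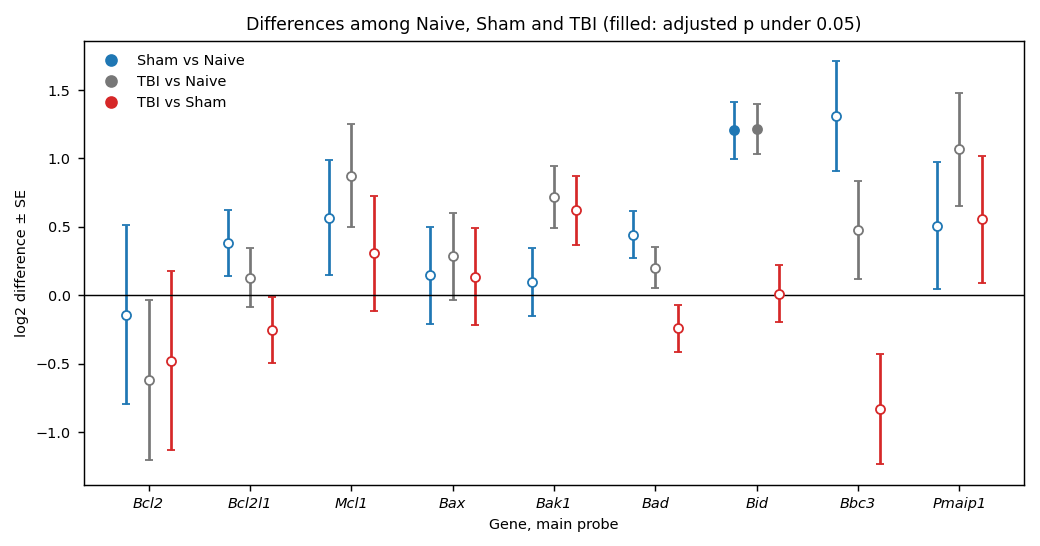
Log2 differences, with standard errors, of the 9 tested genes at their main probe in Sham vs. Naïve, TBI vs. Naïve and TBI vs. Sham, filled where the limma adjusted p was under 0.05. Bid in the comparisons with Naïve is filled, at 1.205 and 1.22, and every TBI vs. Sham point is open.

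The next question was how the drugs changed the family after injury, by each drug-treated group vs. TBI. All 9 tested genes had higher measured levels in each drug group, and those called numbered 6 of 9 in TBI+PMI, 9 of 9 in TBI+JM6 and 9 of 9 in TBI+E33. The background was 56.7%, 70.1% and 70.3% of all probes called, and the median of all probes was itself shifted by 0.79, 0.99 and 1.08 on the log2 scale. Bcl2 and Pmaip1 passed the filter through the drug-treated arrays alone, where they were high, so that their calls follow in part from the filter. Among the 7 genes above background on all arrays of a Naïve, Sham or TBI group, 5, 7 and 7 were called, against 50.4%, 64.7% and 64.3% of such probes. All drug-treated arrays had been scanned in the second session, and these comparisons cannot be told apart from the session. The median difference of the 9 genes was 1.22, 1.73 and 1.83. When the arrays were forced to a common distribution by quantile normalization, which leaves the median of all probes at -0.01 or closer to 0, the calls fell to 2 of 9 (Mcl1 and Bid) in TBI+PMI, 2 of 9 (Mcl1 and Bid) in TBI+JM6 and 1 of 9 (Bid) in TBI+E33, all higher than in TBI, where 19.2%, 27.2% and 20.4% of all probes were called. The 3 comparisons share the TBI arrays, so they are not independent of each other. The summed level of the 5 astrocyte markers, 22.01 to 22.5 in TBI, was 27.4 to 40.5, 44.6 to 48.9 and 45.2 to 47.4 in the 3 drug groups. Of these markers only Gfap rose by more than the shift of all probes, by 2.004, 2.69 and 2.60, and Gjb6 was at -0.88, -0.59 and 0.14, with no call. The sum of the neuron markers was 25.3 to 30.2, 28.5 to 41.1 and 30.6 to 31.6. Their part in the differences was not tested.

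Bid was -2.58, -2.29 and -2.89 in TBI+PMI, -2.48, -1.92 and -2.05 in TBI+JM6 and -2.26 and -2.08 in TBI+E33 rats. Every drug-treated array lay above every TBI array. The share of all probes that did so was not counted, here or for Mcl1 and Bax below. The differences of Bid from TBI were 1.41 (SE 0.19), 1.85 (SE 0.19) and 1.83 (SE 0.21), with limma adjusted p of 8.31e-05, 7.72e-06 and 2.18e-05. Set against the shift of all probes they were 0.62, 0.86 and 0.75, and under quantile normalization they were 0.44, 0.73 and 0.61 (limma adjusted p = 0.0451, 0.00372 and 0.0183). With a normexp background correction the calls in TBI+PMI (0.41, limma adjusted p = 0.737) and TBI+E33 (1.11, limma adjusted p = 0.0981) were lost.

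Mcl1 was called in each drug group. It was -0.42, -0.92 and -1.64 in TBI+PMI, -1.13, -0.88 and 0.11 in TBI+JM6 and -0.99 and -0.86 in TBI+E33 rats, all above the TBI arrays. The differences from TBI were 1.88 (SE 0.38), 2.25 (SE 0.38) and 1.96 (SE 0.42), or 3.69-, 4.74- and 3.88-fold, with limma adjusted p of 0.00119, 0.000244 and 0.00142. Under quantile normalization they were 1.15, 1.37 and 1.02 (limma adjusted p = 0.0224, 0.00764 and 0.0512). With a normexp background correction the calls in TBI+PMI (1.31, limma adjusted p = 0.0971) and TBI+E33 (1.19, limma adjusted p = 0.124) were lost. Bcl2l1 at its main probe was called in each drug group, by 0.86, 0.94 and 1.15 (SE 0.22, 0.22 and 0.24, limma adjusted p = 0.00482, 0.00216 and 0.0012), close to the shift of all probes, and was not called under quantile normalization. Its start codon probe was -2.46, -2.20 and -2.51 in TBI+PMI, -2.88, -1.69 and -2.07 in TBI+JM6 and -2.33 and -1.94 in TBI+E33 rats. There it was higher by 3.02, 3.20 and 3.28 (SE 0.47, 0.47 and 0.53, limma adjusted p = 0.000239, 9.6e-05 and 0.000206), and by 1.96, 1.98 and 1.96 under quantile normalization (limma adjusted p = 0.0146, 0.0102 and 0.0227). The call of this probe in TBI+PMI was lost with normexp (1.22, limma adjusted p = 0.0944). Bcl2 was -5.20, -4.97 and -3.94 in TBI+PMI, -4.20, -4.41 and -3.58 in TBI+JM6 and -4.13 and -3.16 in TBI+E33 rats. Since 2 of the 3 TBI arrays held background signal for it, and it was tested through the drug-treated arrays alone, no fold or p is given. Under quantile normalization it was not called in any drug group.

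**Figure D4:**
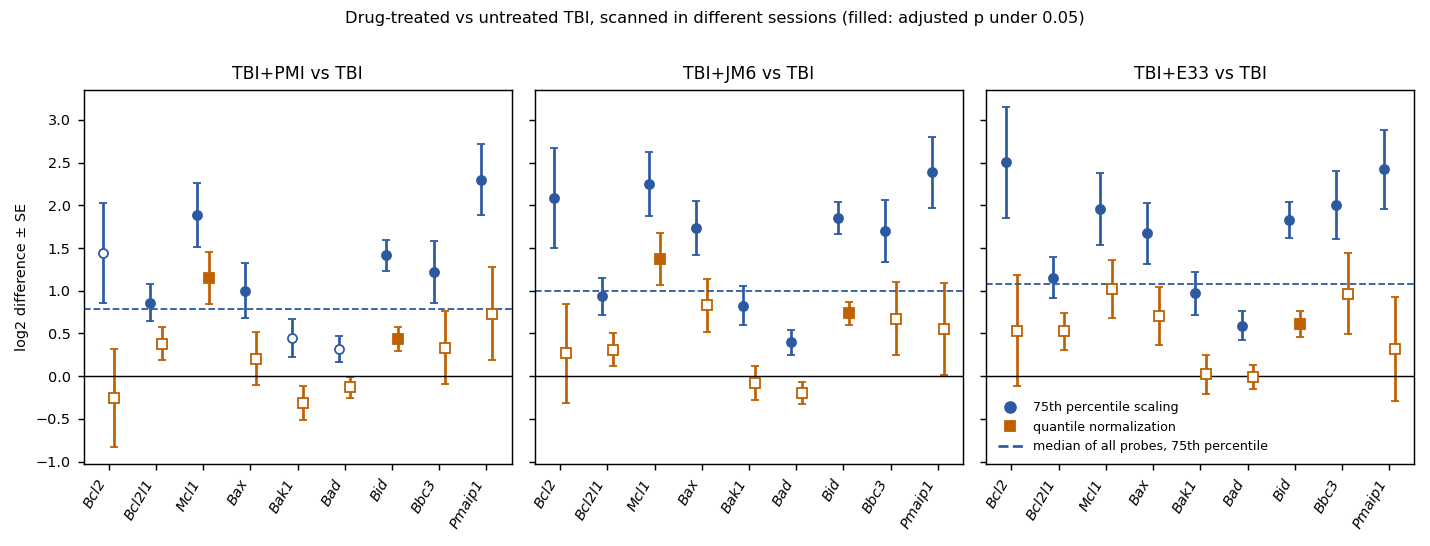
Log2 differences from TBI, with standard errors, of the 9 tested genes in each drug-treated group, with the 75th percentile scaling (circles) and after quantile normalization (squares), filled where the limma adjusted p was under 0.05. The dashed line is the median of all probes under the first scaling, at 0.79, 0.99 and 1.08. After quantile normalization, filled squares remain for Mcl1 and Bid in TBI+PMI and TBI+JM6 and for Bid in TBI+E33.

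Of the effectors, Bax was called in each drug group. It was -1.88, -1.82 and -1.84 in TBI+PMI, -1.41, -0.94 and -0.98 in TBI+JM6 and -1.48 and -0.87 in TBI+E33 rats, above every TBI array. The differences from TBI were 1.002 (SE 0.32, limma adjusted p = 0.0173), 1.73 (SE 0.32, limma adjusted p = 0.000464) and 1.67 (SE 0.36, limma adjusted p = 0.00135), and under quantile normalization they were 0.20, 0.83 and 0.71, none of them called. The call in TBI+PMI was lost without TBI 1 (limma adjusted p = 0.0798). Bak1 was called in TBI+JM6 (0.83, SE 0.22, limma adjusted p = 0.00585) and TBI+E33 (0.97, SE 0.25, limma adjusted p = 0.00451), which is less than the shift of all probes, and under quantile normalization it was -0.08 and 0.02.

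Of the BH3-only genes, Pmaip1 changed from undetected to detected. It was -6.07, -6.61 and -6.97 in TBI rats, all below background, and -3.68, -4.08 and -4.99 in TBI+PMI, -4.34, -3.98 and -4.17 in TBI+JM6 and -4.44 and -3.82 in TBI+E33 rats. Before quantile normalization, and against the lowest detected signal on the TBI arrays, it was at least 3.29-fold, 3.49-fold and 3.57-fold higher in these groups. These folds include the shift of all probes, which was 0.79, 0.99 and 1.08 on the log2 scale. No p is given, since Pmaip1 was tested through the drug-treated arrays alone. Under quantile normalization its differences from TBI were 0.73, 0.55 and 0.32 on the log2 scale, with no call. With a normexp background correction they were 0.17, 1.12 and 0.43, so the folds depend on the scaling and on the background correction. Bbc3 was -2.89, -2.12 and -1.63 in TBI+PMI, -1.43, -1.44 and -2.33 in TBI+JM6 and -1.59 and -1.27 in TBI+E33 rats, and it was called in each, by 1.22, 1.70 and 2.004 (SE 0.36, 0.36 and 0.40, limma adjusted p = 0.012, 0.00124 and 0.000921), but not under quantile normalization. The call in TBI+PMI was lost without TBI 3 (limma adjusted p = 0.0594). Bad differed least of the 9, by 0.40 in TBI+JM6 (SE 0.15, limma adjusted p = 0.0334) and 0.59 in TBI+E33 (SE 0.17, limma adjusted p = 0.00835), and under quantile normalization it lay below TBI, with differences of -0.20 and -0.01. Its call in TBI+JM6 was lost without TBI 1 (limma adjusted p = 0.0886), TBI 3 (0.0935), TBI+JM6 2 (0.12) or TBI+JM6 3 (0.0682).

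Whether the drugs differed from each other could be asked within the second session. By limma 0 of 9 genes were called in TBI+JM6 vs. TBI+PMI, TBI+JM6 vs. TBI+E33 and TBI+PMI vs. TBI+E33, against 0.0131%, 0.0175% and 0.11% of all probes. At an unadjusted p under 0.05 limma passed 2 (Bax and Bid), 0 and 0, and the methods' t-test with its 1.2-fold limit passed 2, 0 and 1. That t-test passed 1554, 618 and 3408 of the 22821 tested probes. The differences ran from 0.07 to 0.73, from -0.42 to 0.29 and from -1.06 to -0.07, where the median of all probes was 0.18, -0.08 and -0.26. The 3 TBI+PMI rats lay below all TBI+JM6 rats for 2 of 9 genes, against 13.9% of all probes: for Bax, by 0.73 on average (SE 0.32, limma adjusted p = 0.535), and for Bak1, by 0.38 (SE 0.22, limma adjusted p = 0.676). Within the slide that held TBI+JM6 1 and the TBI+PMI rats the difference of Bax was 0.43. TBI+PMI rats also lay below both TBI+E33 rats for 5 of 9 genes, namely Bax, Bak1, Bad, Bid and Bbc3, against 39.4% of all probes. All TBI+PMI arrays lay on 1 slide and both TBI+E33 arrays on another, so that comparison also crosses slides. The doses and routes differed between the drugs, so any difference would be one between regimens.

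Around the family, 4 lists of genes of the same pathway were read. The 15 other family genes were all tested. Bcl2l13, a mitochondrial relative, was called in TBI vs. Sham, where it was detected on both Sham arrays and on 0 of 3 TBI arrays and was at least 1.40-fold lower (limma adjusted p = 0.0281), and in Sham vs. Naïve, where it was at least 1.48-fold higher (limma adjusted p = 0.037). It was the only 1 of 15 called in either, where 9.38% and 8.07% of all probes were called. Neither call was kept under quantile normalization, where Bcl2l12 was called higher in TBI vs. Sham instead (0.67, limma adjusted p = 0.029). In TBI vs. Naïve 2 of 15 rose, where 4.71% of all probes were called: Bcl2l12 by 0.99 (SE 0.19, limma adjusted p = 0.0135) and Bcl2a1d, a guardian of blood cells, at least 1.90-fold (limma adjusted p = 0.0408). Bcl2a1d passed the filter through the drug-treated arrays alone, so that its call here rests in part on background signal. In the drug groups 6, 9 and 9 of 15 were called higher than in TBI and 0 lower, where 56.7%, 70.1% and 70.3% of all probes were called. Among the 11 that were above background on all arrays of a Naïve, Sham or TBI group, the counts were 3, 6 and 6, against 50.4%, 64.7% and 64.3% of such probes. Bcl2l14, Bcl2l13 and Bmf were detected on no TBI array. Bcl2l14 and Bmf were tested through the drug-treated arrays alone, so that their differences follow in part from the filter. In the order Bcl2l14, Bcl2l13 and Bmf, the levels were at least 2.24-, 3.02- and 2.73-fold higher in TBI+PMI, 2.77-, 4.60- and 5.04-fold in TBI+JM6, and 2.69-, 3.94- and 4.07-fold in TBI+E33, with the shift of all probes included. Under quantile normalization the counts were 1, 3 and 2 higher and 3, 4 and 4 lower, where 19.2%, 27.2% and 20.4% of all probes were called. The median of the list then moved from 0.83, 0.82 and 0.87 to -0.19, -0.00064 and -0.11.

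Of 12 upstream regulators 11 had a probe. E2f1, a transcription factor of the cell cycle, rose by 1.12 in TBI vs. Naïve (SE 0.16, limma adjusted p = 0.00461) and by 0.98 in Sham vs. Naïve (SE 0.18, limma adjusted p = 0.00859). Mapk9, which encodes the stress kinase JNK2, rose by 1.02 in Sham vs. Naïve (SE 0.21, limma adjusted p = 0.0128) and fell by 0.73 in TBI vs. Sham (SE 0.21, limma adjusted p = 0.0467). No other gene of the list was called among these 3 groups. In the drug groups 6, 7 and 7 of 11 were called, all higher than in TBI, where 56.7%, 70.1% and 70.3% of all probes were called. Above background on all arrays of a Naïve, Sham or TBI group were 9 of the 11. Of these 9, 5, 6 and 6 were called, against 50.4%, 64.7% and 64.3% of such probes. Mapk9 and Mapk10 were called in each drug group under quantile normalization as well. Tp73, a transcription factor, was detected on 0 of 3 TBI arrays and was at least 5.06-, 3.25- and 6.71-fold higher in the drug groups. Its folds include the shift of all probes, and it was not called under quantile normalization in any drug group. Foxo3, which drives transcription of Bcl2l11, was tested through the drug-treated arrays alone, so that its differences follow in part from the filter. They were 1.35, 1.74 and 1.91 (SE 0.35, 0.35 and 0.39), and under quantile normalization Foxo3 was not called in any drug group. Jun was called in TBI+JM6 (2.27, SE 0.59) and TBI+E33 (1.61, SE 0.65), and in neither under quantile normalization.

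Of 10 binding partners 7 had a probe, and of 12 genes that act after pore formation all 12. In the comparisons of TBI with Sham, TBI with Naïve and Sham with Naïve rats, limma called 0 of 7 and 0 of 12. Of all probes it called 9.38%, 4.71% and 8.07%. At an unadjusted p under 0.05 limma passed 0, 0 and 1 partners and 4, 3 and 0 later genes, and the methods' t-test with its 1.2-fold limit passed 1, 1 and 0 and 2, 1 and 0. That t-test passed 3069, 3169 and 3641 of the 22821 tested probes. In the drug groups 4, 6 and 6 of 7 partners and 5, 8 and 7 of 12 later genes were called, all higher than in TBI. The share of all probes called was 56.7%, 70.1% and 70.3%. Of the later genes, 11 were above background on all arrays of a Naïve, Sham or TBI group. Among these 11, 4, 7 and 6 were called, against 50.4%, 64.7% and 64.3% of such probes. Under quantile normalization 1, 2 and 1 partners and 1, 2 and 2 later genes were called, against 19.2%, 27.2% and 20.4% of all probes. Of these, 0, 1 and 1 partners and 0, 1 and 1 later genes were lower than in TBI. Bag3, a co-chaperone that binds BCL2, was 1.21, 1.79 and 1.24 higher than in TBI (SE 0.46, 0.46 and 0.51), and in no drug group under quantile normalization was it called. Ywhaz, a 14-3-3 protein that holds phosphorylated Bad in the cytosol, was 0.83, 0.94 and 0.76 higher (SE 0.19, 0.19 and 0.22), and under quantile normalization it was called in TBI+PMI and TBI+JM6. Xiap, an inhibitor of caspases, was detected on 0 of 3 TBI arrays and was at least 3.72-, 3.80- and 5.005-fold higher in the drug groups, with the shift of all probes included. It too was tested through the drug-treated arrays alone, so that its differences follow in part from the filter. Birc3, a relative of Xiap, was 1.59, 1.61 and 2.03 higher (SE 0.42, 0.42 and 0.47), and 0.31, 0.10 and 0.42 under quantile normalization, with no call. Casp9, the caspase that cytochrome c switches on through Apaf1, was 1.01 higher in TBI+JM6 (SE 0.20, limma adjusted p = 0.000714) and 1.06 higher in TBI+E33 (SE 0.22, limma adjusted p = 0.00121), close to the shift of all probes in both.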

How the data were processed

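Intensities had been background subtracted and detrended within each array by the authors, per the file headers of the scanner output (Agilent Feature Extraction 9.5.3.1), and were not normalized between arrays. The deposited matrix of the authors, labelled as a ratio to the 75th percentile, is on a linear scale and served as an alternative. In it the median of all probes was -0.0034, -0.0038 and -0.0024 in TBI+PMI, TBI+JM6 and TBI+E33 vs. TBI. These medians are near those under quantile normalization and not those of the scaling used here, so its values are not a plain ratio of that kind. Which of 2 amplification kits was used for which rat is not given in the sources used here. Spots of a probe without outlier flags were averaged, divided by the array's 75th percentile of probes well above background, as in the methods, and put on the log2 scale. One limma model was fitted to all 16 arrays by group (10 residual degrees of freedom), with p-values adjusted by Benjamini-Hochberg over all tested probes and calls made below 0.05. The fit was tested on simulated data. The members, the lists and the rule for named genes were chosen with earlier results of these data known. All members are named at their brightest probe with a value on all arrays, with other probes where they differ, and from each list up to 3 called genes per comparison by size of difference. Bcl2l12 in TBI vs. Sham, Mapk10 and Bak1 without TBI 1 were named after their values were seen. One result among the upstream regulators is not reported here. No member was called in TBI vs. Sham at its main probe, so genes of like pattern were not sought. Mapk8, Huwe1, Fbxw7 and Moap1 matched no probe by name. Alternatives were quantile normalization, normexp correction of the background (offset 50), the percentile over all probes, other filters, the matrix, the methods' t-test, limma on 2 groups, slide, replicate and array weight terms, gene means, removal of a GC trend, and each rat left out. Positions are those of rn4. Tests were run with limma 3.58.1 in R 4.3.3, and plots drawn with matplotlib 3.10.9.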

Additional observations from a re-analysis of the deposited data

How the results depend on the processing

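The count of called genes in TBI vs. Sham was 0 and became 1 with array weights (Bak1, 0.71). In TBI vs. Naïve the count of 1 became 0 with a normexp background correction, the adjusted t-test of the methods, limma on the compared groups alone and the slide as a fixed block, and 2 with array weights or with probes above background on all arrays. In Sham vs. Naïve it became 0 with normexp, the adjusted t-test and limma on the compared groups, and 2 with probes above background on all arrays, with the unadjusted t-test over 1.2-fold and with the mean of all tested probes of a gene. For the drugs vs. TBI the counts of 6, 9 and 9 in TBI+PMI, TBI+JM6 and TBI+E33 became 0, 4 and 3 with normexp, 2, 2 and 1 with quantile normalization and with the authors' matrix, and 3, 5 and 3 with the 75th percentile over all probes, and that in TBI+PMI 2 with the adjusted t-test. Between drugs the unadjusted t-test gave 2 in TBI+JM6 vs. TBI+PMI and 1 in TBI+PMI vs. TBI+E33. With each rat left out the counts ran from 0 to 1 in TBI vs. Sham (1 without TBI 1), 1 to 2 in TBI vs. Naïve (2 without TBI 1), 0 to 1 in Sham vs. Naïve (0 without Sham 2), 5 to 8, 8 to 9 and 7 to 9 for the 3 drugs vs. TBI, and 0 to 0 in each comparison between drugs. Where this left 1 Sham or TBI+E33 array, it was assumed to vary like the other groups.

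Signs turned for some differences, among them Bak1 and Bad, which had been called in the drug groups. In TBI vs. Sham, where no main probe was called, they were -0.018 for Bid and -0.059 for Mcl1 with array weights, -0.77 for Pmaip1, which had background signal only, with the slide as a fixed block and 0.51 for Bcl2 with normexp. With each rat left out Bax ran from -0.17 to 0.46, Bid from -0.087 to 0.11 and Bcl2 from -1.19 to 0.23. In TBI+JM6 vs. TBI, Bak1 was -0.077 with quantile normalization and -0.063 with the authors' matrix, and Bad was -0.20, -0.19 with the matrix, and -0.39 with the 75th percentile over all probes (limma adjusted p = 0.0233). In TBI+E33 vs. TBI, Bad was -0.012 with quantile normalization and -0.24 with the 75th percentile over all probes. Of the differences in TBI vs. Sham and of those called elsewhere, 651 kept their direction and side of the threshold over the alternatives, rats left out included, 105 fell short of it, 2 newly passed it and 16 turned.

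The replicate number did not pair the rats: the correlation of deviations between arrays of the same number ran from -0.185 to 0.183 and was over 0.1 in 3 of 36 pairs. With the replicate block, the counts of called genes were 7 in TBI+PMI vs. TBI and as before in the other 8 comparisons, and the start codon probe of Bcl2l1 in TBI vs. Sham fell short (limma adjusted p = 0.0599). Signal over background limits Bcl2, Pmaip1 and Bcl2l11 most.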
